A study of Mus musculus with 9 samples.

Results

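The cells described here were 321 cells of mouse brain suspensions that carried RNA of Cyp2f2 or Aldh1a2, out of 29571 cells in the whole table. A cell was a member if its unique molecular identifiers (UMIs, each standing for 1 captured RNA molecule) of Cyp2f2 and Aldh1a2 summed to 2 or more, if it had no UMI of Rax, and if Gh made up under 50% of its UMIs. The rule was applied to the 3 libraries numbered 4, 5 and 6, in the order in which library codes appear in the table. Members were thus selected on measured UMIs of these 4 genes. By library they were 123 of 3491, 34 of 2706 and 164 of 3916 cells. These were 3.52% (exact Clopper-Pearson 95% interval 2.94 to 4.19), 1.26% (0.872 to 1.75) and 4.19% (3.58 to 4.86) of the cells. All intervals in the text are of that kind for shares and exact Poisson 95% intervals for levels, and they cover counting error only.

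The study profiled single cells of the cortex, hypothalamus and brainstem of C57BL/6 mice of 9 to 11 weeks, given as C57BL/6 J in the paper. No transgene or deletion was named in the labels. Mice either slept freely (NS), were kept awake for 12 h from lights on (SD), or had recovery sleep after such a deprivation (RS), given as 12 h in one place of the labels and 24 h in another. Brains were taken at zeitgeber time 12, and each of the 9 samples was 1 library of 3 pooled mice. The library codes of the table match no label, so libraries 4 to 6 were not tied to a region or a sleep group and no sleep comparison was made. Values are therefore given by library, or summed over the 3 libraries for smaller sets of cells, with no p-value.

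Gh, the gene of pituitary growth hormone, made up 25.3%, 27.9% and 32.1% of all UMIs in libraries 4, 5 and 6, and under 0.01% in each of the other 6. Hormone UMIs were present in almost every cell, so levels are given as CPM, the UMIs of a gene per 1000000 UMIs outside Gh, Prl and Pomc. On that count the median member had 2015, 855.5 and 2458 UMIs, and the median of the other cells was 606.5, 436 and 639. A rule that asks for 2 UMIs favours deep cells. Library 5 was the shallowest, and 1 UMI among its members was worth 21.6 CPM, against 3.34 and 2.16 CPM in libraries 4 and 6. The 3 libraries shared few cell barcodes (11 between 4 and 5, 12 between 5 and 6 and 18 between 4 and 6), and no barcode was a member in more than 1 of them. Scrublet called 0, 5 and 0 doublets in libraries 4, 5 and 6, too few to have worked, so all cells were kept.

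The anterior pituitary holds hormone cells and a minority of cells that make no hormone. Among the latter are SOX2-positive stem or progenitor cells, which line the pituitary cleft and form an epithelium with tight junctions, and folliculostellate cells, star-shaped cells classically stained for S100B. Cyp2f2 encodes a cytochrome P450 best known from club cells of the airway, where it oxidises foreign compounds. Aldh1a2 encodes the enzyme that turns retinaldehyde into retinoic acid, a ligand of nuclear receptors in development. Mia encodes a small secreted protein of the extracellular matrix.

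Nearly all members carried Cyp2f2. Both genes were present in 161 members, Cyp2f2 alone in 146 and Aldh1a2 alone in 14. The summed UMIs had a median of 5, 3 and 4 and reached 31, 14 and 28 in libraries 4, 5 and 6. Just inside the limit were 74 members with a sum of 2, and just outside were 132 cells with a sum of 1. Mia was at 7562 CPM in the former and 4475 CPM in the latter, Sox2 at 239.8 and 198 CPM, and S100b at 9.99 and 128 CPM. The limit on Rax kept out 4 cells, each with 1 Rax UMI. The limit on Gh kept out 6, the nearest at 50.8% Gh, while the member with the most Gh had 48.2%. The median member had 0.801% of its UMIs in Gh.

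The 14 members with Aldh1a2 alone resembled those with Cyp2f2. Aldh1a2 is also a gene of leptomeningeal fibroblasts, so 6 fibroblast genes (Dcn, Lum, Col1a1, Col1a2, Col3a1 and Slc6a13) were summed in each set. They stood at 55.0 CPM (35.6 to 81.1) in members with both genes, 27.2 CPM (12.5 to 51.7) with Cyp2f2 alone and 169.7 CPM (46.2 to 434, from 4 UMIs) with Aldh1a2 alone. Mia was present in all 14 of the last set, at 7168 CPM (6128 to 8334), against 6382 and 5053 CPM in the first and second. The same rule found 13 cells among the 19458 of the other 6 libraries. There the fibroblast genes stood at 3824 CPM and were present in all 13 cells, Cyp2f2 was present in 3 and Mia in 1. In the 321 members the fibroblast genes stood at 47.0 CPM.

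The name given to these cells, pituitary stem or folliculostellate-like, fitted the stem genes and not S100b. Mia was present in 315 of the 321 members, at 7769, 6006 and 4617 CPM in the members and 406, 562 and 650.3 CPM in the other cells. Sox2, the transcription factor that marks pituitary stem cells, was at 351, 281 and 269.8 CPM in the members and 77.8, 81.8 and 90.8 CPM in the other cells, with the intervals of members and others apart in each library. Sox9, its partner in committing progenitors, was at 211, 216 and 281 CPM in the members and 102, 163 and 147 CPM in the other cells. In library 5 the intervals of Sox9 overlapped (104 to 397 and 143 to 185). Sox9 was also no lower in cells with a Rax UMI, as given below. Transcription factors of the developing pituitary were above the other cells as well. Pitx1 was at 154, 216 and 189.9 CPM in the members and 65.2, 37.1 and 74.6 CPM in the other cells, and Lhx3 at 63.5, 86.4 and 75.5 CPM in the members and 22.9, 7.56 and 33.5 CPM in the other cells. Hes1, the Notch-driven repressor, was at 776, 907 and 766 CPM in the members and 126, 207 and 90.2 CPM in the other cells.

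S100b was lower in the members. Members had 7 S100b UMIs in 7 cells, which gave 10.0, 0 and 8.63 CPM in the members and 149, 244 and 255 CPM in the other cells. Taking 3 UMIs as the most that a count of 0 allows, the 0 in library 5 allows up to 64.8 CPM. Among further genes of the list, some were lower in the members and some higher. Vim, an intermediate filament, was at 40.1, 21.6 and 38.9 CPM in the members and 126, 193 and 80.2 CPM in the other cells, and Gja1, a gap junction protein, at 40.1, 64.8 and 38.9 CPM in the members and 144, 239 and 115 CPM in the other cells. Gfap, a filament of glia, was at 3.34, 0 and 10.8 CPM in the members and 19.4, 61.1 and 16.2 CPM in the other cells, which at this depth was not a detectable difference in any library. Gfra2 had no UMI in any member, which by the same limit allows up to 3.71 CPM over the 3 libraries, and stood at 8.69, 15.8 and 11.9 CPM in the other cells. Slc15a2, a peptide transporter used to label folliculostellate cells, was higher, at 187, 108 and 138 CPM in the members and 20.5, 20.6 and 23.2 CPM in the other cells. Anxa1, a phospholipid-binding protein of folliculostellate cells, was also higher in libraries 4 and 6. It was at 144, 64.8 and 71.2 CPM in the members and 17.8, 28.9 and 13.6 CPM in the other cells. In library 5 the intervals of Anxa1 overlapped (13.4 to 189 and 20.8 to 39.0). Of its UMIs, 52 lay in 4 of 12 members rich in Cck, and it was at 42.0 CPM (27.2 to 62.0) in the 272 members rich in neither Cck nor Lhb. Since S100b went against the folliculostellate name, the cells are called Cyp2f2/Aldh1a2 cells below.

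**Figure D1:**
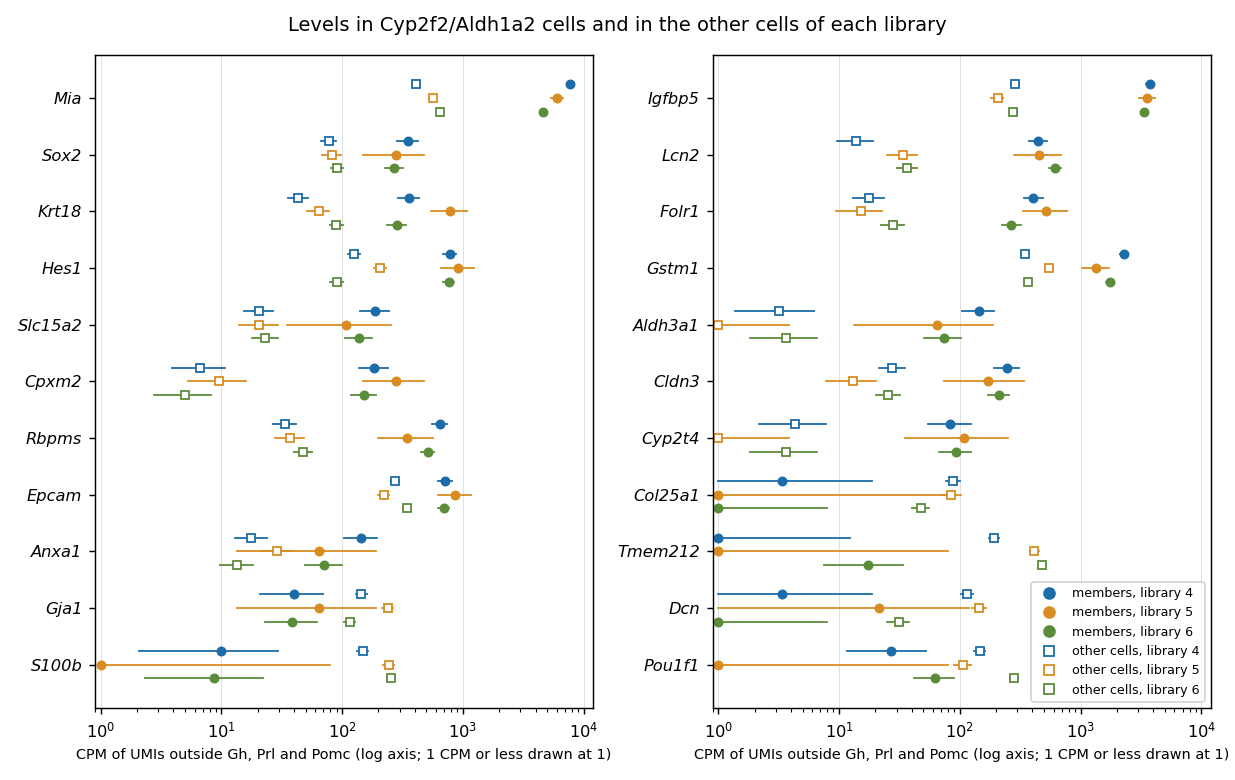
Levels in CPM of UMIs outside Gh, Prl and Pomc (log axis) for 22 genes in the Cyp2f2/Aldh1a2 cells (filled circles) and the other cells (open squares) of libraries 4, 5 and 6, with exact Poisson 95% intervals and values of 1 CPM or less drawn at 1. Mia stood at 4617 CPM or more in the members of each library, while S100b stood at 10.0 CPM or less there and at 149 CPM or more in the other cells.

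Across the list of pituitary stem or folliculostellate genes, 39 of 40 genes were in the table and 35 reached 10 CPM in the members or the other cells of each library. Of these, 5 were at least 4 times as high in the members in all 3 libraries (ratio of CPM + 10) and 2 at least 4 times as low. Over all 9684 genes, 0.558% were that much higher and 0.465% that much lower. The rule chose cells by this same contrast, so nothing is read from either share. Hes1, Mia, Cpxm2 and Rbpms were among the higher genes, and the 2 lower ones were S100b and Sparcl1. Mia and Hes1 did not pass among cells of at least 1000 UMIs, Hes1 did not with 3 or more UMIs in the rule, and Sparcl1 did not without the members rich in Lhb or Cck. Cpxm2, a carboxypeptidase-like protein, was at 184, 281 and 151 CPM in the members and 6.72, 9.62 and 4.97 CPM in the other cells. Rbpms, an RNA-binding protein, was at 642, 346 and 512 CPM in the members and 33.6, 37.1 and 47.4 CPM in the other cells. The list's median log2 ratio was 1.28, beside -0.12 over all genes, and 27 of its 35 genes lay above the other cells in all 3 libraries, as did 18.5% of all genes tested.

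Members were mostly 1 cluster when cells were grouped without the genes of the rule. The 10113 cells of libraries 4 to 6 fell into 19 clusters, and 256 of the 321 members (79.8%, 74.9 to 84.0) lay in cluster 5, which held 582 cells. They numbered 101, 22 and 133 in libraries 4, 5 and 6. Cluster 5 met the rule for the name pituitary stem-like, with Mia and Cpxm2 among its 10 leading genes. A further 22 members lay in cluster 1 and 10 in cluster 2, both with Gh among their leading genes, and 8 in cluster 7, led by Lhb. The microglia or macrophage-like cluster 13 held 5, the astrocyte-like cluster 8 held 3 and the tanycyte or pituicyte-like cluster 12 held 2. The endothelial-like clusters 9 and 16 held 1 and 2, the ependymal-like cluster 6 held 1 and the mural-like cluster 17 held 1. The unnamed clusters 3, 4, 10 and 14 held 3, 1, 4 and 2. No member lay in clusters 11, 18 and 19, nor in the fibroblast-like cluster of 201 cells, led by Ptgds and Dcn. A cluster is built from the same cells, so none of this is a test.

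**Figure D2:**
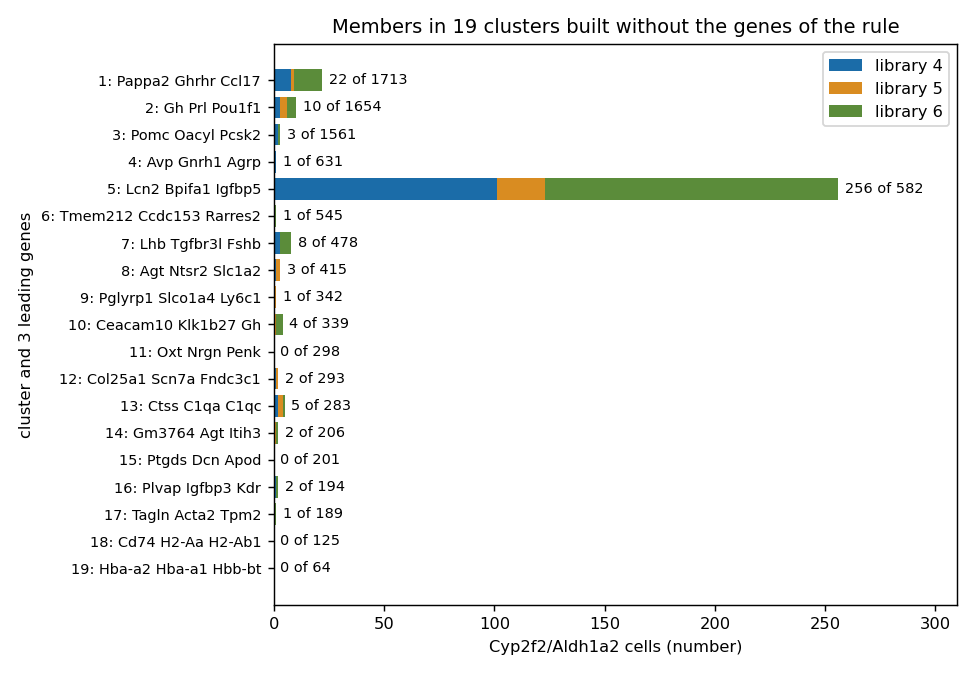
Number of Cyp2f2/Aldh1a2 cells (horizontal axis) in each of 19 clusters, named by 3 leading genes, with bars split by library and the number of members of all cells of the cluster printed beside them. Cluster 5 held 256 of the 321 members, and the next, cluster 1, held 22.

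The 65 members outside cluster 5 kept the leading genes at lower levels. Mia was at 4684 CPM (4316 to 5075) in them and 6084 CPM (5899.8 to 6272) in the members inside, and Sox2 at 172 (108 to 260.5) and 325 CPM (283 to 370.3). Gh, set against the same totals, was at 162520 CPM outside and 43661 CPM inside, and Hbb-bs, a hemoglobin gene of red cells, at 907 and 30.8 CPM. The part of hormone cell or red cell RNA in these values was not tested.

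Cluster 5 also held 326 cells that were no members, 259 of them with no UMI of either gene and 42 with Rax. They were shallower, with a median of 636.5 UMIs against 2263 in the members of that cluster. In the 284 of them without Rax, Mia was at 4416 CPM and Lcn2 at 401 CPM, against 6084 and 568 CPM in the members of the cluster. Some genes were higher in them than in the members of the cluster. Nkx2-1, a factor of the hypothalamic floor and the neural pituitary, was at 55.6 CPM in them and had no UMI in any member. Col23a1 was at 159 CPM against 0, Apoe at 4043 against 518, and S100b at 55.6 against 8.81 CPM. Among the 198 cells of the 3 libraries with a Rax UMI, Mia was at 1150.0, Lcn2 at 15.2 and Apoe at 7498 CPM. Sox9 did not set the members apart from either group. It was at 275 CPM (237 to 317) in the members of the cluster. It was at 270 CPM (210 to 342) in the 284 cells and 339 CPM (263 to 431) in those with Rax.

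Outside the gene lists, Igfbp5, Lcn2 and Ly6e were among the 15 genes most raised over the other cells, ranked by the smallest ratio of the 3 libraries. In all, 54 genes were at least 4 times as high in the members of all 3 libraries and 39 of them were on no list. Igfbp5, which binds insulin-like growth factors, was at 3731, 3565 and 3384 CPM in the members and 288, 205 and 278 CPM in the other cells. Lcn2, an iron-siderophore binding protein, was at 445, 454 and 615 CPM in the members and 13.8, 33.7 and 36.5 CPM in the other cells. Ly6e, a surface protein anchored by a lipid, was at 1779, 1944 and 2158 CPM in the members and 308, 282 and 241 CPM in the other cells. All 3 genes were several times as high in the members of each library.

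Hsd11b1, which regenerates active glucocorticoid inside cells, was at 217, 173 and 149 CPM in the members and 16.2, 11.0 and 13.6 CPM in the other cells. Its neighbour G0s2, an inhibitor of fat breakdown, was at 575, 367 and 505 CPM in the members and 62.4, 37.8 and 47.7 CPM in the other cells. Alox12e, a lipoxygenase of epidermis, was at 140.4, 108 and 166 CPM in the members and 4.35, 2.75 and 5.63 CPM in the other cells, and Ces1d, a carboxylesterase, at 231, 389 and 269.8 CPM in the members and 26.5, 35.7 and 24.5 CPM in the other cells. G0s2 did not pass 4-fold with 3 or more UMIs in the rule, and Ces1d did not among cells of at least 1000 UMIs.

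Six2, a homeobox gene, was at 117, 86.4 and 164 CPM in the members and 9.09, 4.81 and 11.6 CPM in the other cells, Pax6, best known for eye and early pituitary, at 207, 129.6 and 159.7 CPM in the members and 10.7, 6.18 and 16.2 CPM in the other cells, and Msx1 at 478, 583 and 414 CPM in the members and 53.3, 39.2 and 69.6 CPM in the other cells. Il17re, a receptor subunit for interleukin-17C, was at 117, 129.6 and 71.2 CPM in the members and 4.35, 2.06 and 3.65 CPM in the other cells. Prss8, a serine protease of epithelial surfaces, was at 76.9, 86.4 and 64.8 CPM in the members and 3.95, 0.687 and 2.65 CPM in the other cells, and Agr3, a protein of the secretory pathway, at 100.3, 108 and 66.9 CPM in the members and 2.37, 3.43 and 2.98 CPM in the other cells. Pax6 and Prss8 did not pass 4-fold with 3 or more UMIs in the rule, and Msx1 and Agr3 did not among cells of at least 1000 UMIs. In library 5 the levels of these genes other than Msx1 rest on 4 to 6 UMIs each.

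Outside the gene lists, the 5 genes with the lowest ratios included markers of neurons, meninges and ciliated cells. Pltp, a phospholipid transfer protein, was at 13.4, 21.6 and 8.63 CPM in the members and 222, 328 and 274 CPM in the other cells, Ptgds, the prostaglandin D synthase of meninges and oligodendrocytes, at 73.5, 129.6 and 47.5 CPM in the members and 500.1, 2145 and 423 CPM in the other cells, and Rtn1, a reticulon of neurons, at 16.7, 21.6 and 8.63 CPM in the members and 214, 339 and 160.4 CPM in the other cells. Meig1, of cells with motile cilia, was at 3.34, 0 and 6.48 CPM in the members and 116, 198 and 219 CPM in the other cells. Sncg had no UMI in the members and stood at 52.5, 85.9 and 51.0 CPM in the other cells.

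Cyp2f2, Mia and Cyp2t4, another cytochrome P450 among the leading genes, are neighbours in the genome. In GENCODE vM21 on GRCm38, Cyp2f2 lies at chr7:27119909-27133660 on the plus strand, Cyp2t4 at chr7:27153714-27158668 on the plus strand and Mia at chr7:27179742-27181157 on the minus strand, with 46.1 kb between the first and the last. Cyp2t4 was at 83.6, 108 and 92.8 CPM in the members and 4.35, 0.687 and 3.65 CPM in the other cells. The 2 genes between Cyp2t4 and Mia are Egln2, an oxygen sensor, and Rab4b, a small GTPase of endosomes. Egln2 was at 294, 108 and 166 CPM in the members and 60.4, 62.5 and 57.3 CPM in the other cells. Rab4b was at 13.4, 0 and 6.48 CPM in the members and 7.90, 10.3 and 5.97 CPM in the other cells. Snrpa, a splicing protein beyond Mia, was at 53.5, 0 and 66.9 CPM in the members and 61.6, 75.6 and 63.6 CPM in the other cells. By ratios of CPM + 10, Cyp2t4 was at least 6.52 times and Egln2 at least 1.63 times as high in the members of each library. In library 5 Egln2 rested on 5 UMIs, too few to tell it from the other cells. Rab4b was too low to compare, with no UMI in the members of library 5. Cyp2t4 and Egln2 overlap by a few bases at their ends in the annotation, and how reads were split there was not tested.

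Bases before the start of each of the 3 neighbours are shown because Cyp2t4 and Mia were high in cells selected on Cyp2f2. They come from the 250 bases before the RefSeq start (GRCm38.p6), 5′ to 3′ on the strand of the gene. The GENCODE start lies further upstream for Cyp2f2 and Mia, so the last 46 and 8 of these bases were searched and not printed. Capitals mark ACAANG, where N is any base, and TAATCC, the core of PITX proteins, both searched on both strands. ACAANG is looser than the core that SOX proteins bind, which has A or T at N.
Cyp2f2, chr7:27119705-27119908, + strand: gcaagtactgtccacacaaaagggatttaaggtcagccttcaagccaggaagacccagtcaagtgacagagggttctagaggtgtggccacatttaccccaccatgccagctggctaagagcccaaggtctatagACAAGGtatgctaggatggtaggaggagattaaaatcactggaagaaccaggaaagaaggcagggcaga
Cyp2t4, chr7:27153464-27153713, + strand: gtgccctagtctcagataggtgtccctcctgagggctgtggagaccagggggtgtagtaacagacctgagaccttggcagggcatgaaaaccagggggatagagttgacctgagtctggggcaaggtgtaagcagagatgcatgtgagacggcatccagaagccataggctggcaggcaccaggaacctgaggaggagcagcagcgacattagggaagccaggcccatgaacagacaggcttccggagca
Mia, chr7:27181158-27181399, - strand: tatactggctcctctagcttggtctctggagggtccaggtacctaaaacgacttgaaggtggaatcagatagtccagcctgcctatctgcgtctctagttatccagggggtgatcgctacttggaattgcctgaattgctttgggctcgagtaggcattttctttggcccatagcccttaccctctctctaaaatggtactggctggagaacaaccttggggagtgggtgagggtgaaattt
Cyp2f2 held 1 match to ACAANG, with G at N, and the windows of Cyp2t4 and Mia held none. TAATCC was in none of the 3 windows. Of 27025 such windows, 1 per gene of the RefSeq table, 36.6% held ACAANG and 6.38% held TAATCC. A match is a run of letters and not a shown binding site.

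A few genes that handle foreign compounds and aldehydes were far higher in the members. Of 24 genes tested on the first list, 3 were at least 4 times as high in all 3 libraries, 0 were as low, and 19 lay above and 2 below the other cells in every library. Over all genes tested 0.558% passed 4-fold upwards, 18.5% lay above in every library and 32.0% below. Cyp1b1, Akr1c14 and Ugt1a6a were at 0 in the members. The list's median log2 ratio was 1.13. Aldh3a1, which clears aldehydes, was at 144, 64.8 and 73.4 CPM in the members and 3.16, 0.687 and 3.65 CPM in the other cells. Gstm2, a glutathione transferase, was at 134, 151 and 106 CPM in the members and 5.14, 11.0 and 7.29 CPM in the other cells, and Cbr2, a carbonyl reductase, at 86.9, 151 and 51.8 CPM in the members and 3.16, 2.06 and 4.97 CPM in the other cells. Gstm1 was at 2307, 1339.5 and 1753 CPM in the members and 347, 547 and 366 CPM in the other cells, and Mgst1, a membrane-bound glutathione transferase, at 689, 605 and 477 CPM in the members and 88.5, 161 and 82.9 CPM in the other cells. With 3 or more UMIs in the rule, Aldh3a1 and Cbr2 did not pass 4-fold. Mitochondrial Aldh2 was at 281, 346 and 263 CPM in the members and 115, 144 and 81.2 CPM in the other cells. Por, which passes electrons to cytochromes P450 such as Cyp2f2, was at 227, 151 and 216 CPM in the members and 96.4, 109.9 and 86.5 CPM in the other cells.

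On the retinoic acid list 19 of 22 genes were in the table, 10 were tested and none passed 4-fold in either direction, with a median log2 ratio of 0.03. Over all genes tested 0.558% passed upwards and 0.465% downwards. Aldh1a2 was part of the rule and was left out. Aldh1a1, a further enzyme of retinoic acid synthesis, was at 100.3, 64.8 and 54.0 CPM in the members and 12.6, 16.5 and 9.61 CPM in the other cells. Crabp2, which carries retinoic acid to the nucleus, was at 16.7, 86.4 and 34.5 CPM in the members and 4.74, 13.7 and 2.65 CPM in the other cells. Enzymes before and after that step were not raised. Rdh10, which makes retinaldehyde, was at 26.7, 21.6 and 34.5 CPM in the members and 19.8, 17.9 and 27.2 CPM in the other cells, and Cyp26b1, which breaks retinoic acid down, had no UMI in the members and was at 12.2, 7.56 and 5.30 CPM in the other cells. The receptors Rarb, Rxra and Rxrb were each at 33.4 CPM or less in the members of every library.

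Tight junction genes were among those past 4-fold. Of 19 junction, adhesion and keratin genes tested, 3 were at least 4 times as high in all 3 libraries and none as low. Over all genes tested 0.558% were that much higher and 0.465% that much lower. In every library 14 lay above the other cells (median log2 ratio 0.98), beside 18.5% of all genes tested. Cldn1 was at 0 in the members. The 3 were Cldn3 and Cldn7, which seal tight junctions, and Cgn, a plaque protein of the same junctions. Cldn3 was at 244, 173 and 212 CPM in the members and 27.7, 13.1 and 25.5 CPM in the other cells, Cldn7 at 127, 216 and 101 CPM in the members and 9.48, 8.93 and 14.9 CPM in the other cells and Cgn at 154, 108 and 110.1 CPM in the members and 11.5, 11.0 and 13.9 CPM in the other cells. Cgn did not pass with 3 or more UMIs in the rule, nor did Cgn and Cldn7 among cells of at least 1000 UMIs. Ezr, which ties the membrane to actin, was at 344, 475 and 419 CPM in the members and 62.8, 121 and 103 CPM in the other cells. Epcam, an adhesion protein of epithelia, was at 715, 864 and 693 CPM in the members and 276, 221 and 345 CPM in the other cells. The keratins of simple epithelia were high as well, with Krt8 at 194, 389 and 181 CPM in the members and 23.7 to 37.6, 11.7 to 26.2 and 44.8 to 61.6 CPM (intervals) in the other cells. Krt18 was at 358, 778 and 283 CPM in the members and 43.1, 63.9 and 89.8 CPM in the other cells. Cdh2, a cadherin shared by neural and pituitary cells, was at 197, 108 and 188 CPM in the members and 148, 163 and 123 CPM in the other cells, without a steady difference.

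On the Notch list the receptor Notch2 and the targets Hey1 and Hey2 stood above the other cells, and the target Hes5 and the ligands Jag1 and Dlk1 did not. Notch2 was at 411, 324 and 335 CPM in the members and 78.2, 86.6 and 81.5 CPM in the other cells. Its target Hey1 was at 150.4, 108 and 173 CPM in the members and 23.7, 29.5 and 26.8 CPM in the other cells, and Hey2 at 90.3, 64.8 and 75.5 CPM in the members and 5.14, 8.24 and 7.95 CPM in the other cells. Hes5, the target in neural stem cells and astrocytes, was at 0, 21.6 and 2.16 CPM in the members and 39.1, 30.2 and 12.6 CPM in the other cells. Of the ligands, Jag1 was at 23.4, 0 and 15.1 CPM in the members and 25.3, 29.5 and 9.94 CPM in the other cells, and Dlk1, a Notch-related protein of growth hormone cells, at 344, 64.8 and 569.8 CPM in the members and 1185, 918 and 1971 CPM in the other cells. Of 11 Notch genes tested, 1 (Hey2) passed 4-fold upwards and 0 downwards, beside 0.558% and 0.465% of all genes tested. Hey2 did not pass with 3 or more UMIs in the rule, nor among cells of at least 1000 UMIs.

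No gene of the Hippo, Wnt, TGF beta and BMP, growth factor or extracellular matrix lists passed 4-fold in either direction, of 11, 13, 14, 14 and 12 tested. Their median log2 ratios were 0.25, 0.60, 0.68, 0.45 and 0.16. Over all genes tested 0.558% passed upwards and 0.465% downwards, so nothing is read from the lack of calls. Cyr61, a secreted target of YAP, was at 221, 432 and 289 CPM in the members and 63.2, 142 and 92.1 CPM in the other cells. Fzd1, a Wnt receptor, was at 86.9, 86.4 and 69.1 CPM in the members and 13.8, 15.8 and 11.9 CPM in the other cells, and Lgr4, the receptor for R-spondins, at 130.4, 108 and 145 CPM in the members and 39.1, 30.2 and 40.4 CPM in the other cells. Id1, a target of BMP signals, was at 197, 367 and 101 CPM in the members and 71.9, 133 and 38.4 CPM in the other cells, and Id2 at 194, 497 and 179 CPM in the members and 97.6, 142 and 72.9 CPM in the other cells. Inhba, a subunit of activin, was at 43.5, 21.6 and 56.1 CPM in the members and 1.98, 1.37 and 2.65 CPM in the other cells. Fgfr1 was at 157, 216 and 147 CPM in the members and 66.0, 109.9 and 61.3 CPM in the other cells, and Ctf1, a cytokine of the interleukin-6 family, at 110.3, 64.8 and 58.3 CPM in the members and 26.5, 13.7 and 17.6 CPM in the other cells. Sdc4, a heparan sulfate proteoglycan, was at 498, 886 and 619 CPM in the members and 122, 224 and 106 CPM in the other cells, and Sparc, a matrix protein of vessels and glia, at 43.5, 302 and 73.4 CPM in the members and 493, 892 and 372 CPM in the other cells.

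Mki67 and Top2a, genes of dividing cells, were at a few UMIs. Mki67, a protein of dividing nuclei, was at 3.34, 0 and 10.8 CPM in the members and 6.32, 4.12 and 8.95 CPM in the other cells, from 1, 0 and 5 UMIs in the members. Top2a, which untangles DNA in division, was at 3.34, 0 and 10.8 CPM in the members and 8.30, 3.43 and 14.3 CPM in the other cells. Pcna, the sliding clamp of DNA polymerases, was at 36.8, 21.6 and 23.7 CPM in the members and 39.1, 34.3 and 41.1 CPM in the other cells, and Hmgb2, a chromatin protein, at 43.5, 64.8 and 58.3 CPM in the members and 52.1, 78.3 and 67.6 CPM in the other cells. Cdkn1c, an inhibitor of the cycle, was the 1 gene of 6 tested that passed 4-fold upwards, beside 0.558% of all genes tested. It was at 254, 475 and 201 CPM in the members and 55.3, 59.8 and 29.2 CPM in the other cells. Of its UMIs in the members, 99 lay in 12 cells rich in Cck, and it did not pass without the cells rich in Lhb or Cck, with 3 or more UMIs in the rule, or among cells of at least 1000 UMIs. Of 10 other S100 genes in the table, 4 were tested, 3 lay above the other cells in all 3 libraries (beside 18.5% of all genes tested), none passed 4-fold, and S100a8 and S100a9 were at 0 in the members. S100a11 was at 809, 583 and 691 CPM in the members and 261, 269 and 332 CPM in the other cells, S100a10 at 445, 346 and 458 CPM in the members and 162, 180.0 and 257 CPM in the other cells and S100a16 at 217, 173 and 149 CPM in the members and 72.3, 78.3 and 42.8 CPM in the other cells. On the antigen presentation list none of 11 genes passed, beside 0.558% upwards and 0.465% downwards of all genes tested. The list's median log2 ratio was -0.50, beside -0.12 over all genes. In every library 3 of its genes lay above and 3 below the other cells, beside 18.5% and 32.0% of all genes tested. C3, C1s1 and Serping1 were at 0 in the members. The class I gene H2-K1 was at 558, 346 and 512 CPM in the members and 151, 119.5 and 123 CPM in the other cells, and H2-D1 at 618, 410.5 and 499 CPM in the members and 297, 211 and 152 CPM in the other cells. Cd59a, a brake on complement, was at 184, 281 and 220.2 CPM in the members and 56.1, 81.8 and 68.6 CPM in the other cells.

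**Figure D3:**
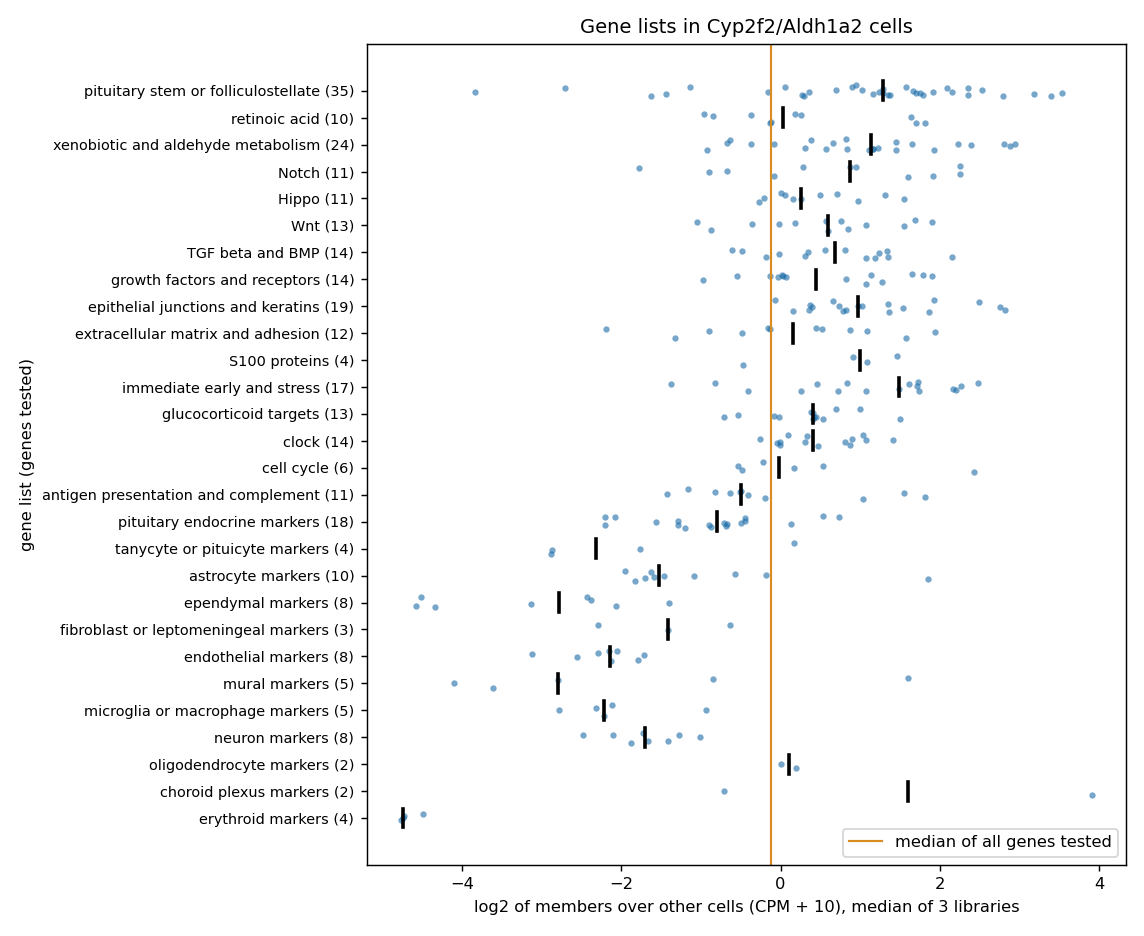
The log2 ratio of members over other cells (CPM + 10, median of 3 libraries) for each tested gene (points) of 28 gene lists, with the median of each list (black bars), the number of genes tested in brackets and the median of all genes tested (orange line, -0.12). Lists for stem genes, foreign-compound enzymes, junctions and immediate early genes have medians from 0.98 to 1.48, and those for ependymal, endothelial, mural and erythroid markers from -4.74 to -2.14.

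Markers of most other cell types summed to less in the members, while astrocyte markers did not in every library, oligodendrocyte markers were near level and the choroid plexus gene Folr1 was higher. The summed level of 8 ependymal markers was 60.2, 64.8 and 125 CPM in the members and 1159, 2025 and 2207 CPM in the other cells. Of the 8, Tmem212, Ccdc153, Rarres2 and Dynlrb2 were at least 4 times as low in every library, beside 0.465% of all genes tested. Of 12 tanycyte or pituicyte markers, 4 were at 0 in the members, Rax by the rule and Nkx2-1, Lhx2 and Frzb besides. Col25a1, which led the cluster that held Rax among its leading genes, was at 3.34, 0 and 0 CPM in the members and 88.1, 85.2 and 47.4 CPM in the other cells, and Scn7a at 3.34, 0 and 0 CPM in the members and 87.7, 93.4 and 62.0 CPM in the other cells. Of 12 fibroblast or leptomeningeal markers, 6 were at 0, Lum, Col1a1 and Col3a1 among them, and Dcn was at 3.34, 21.6 and 0 CPM in the members and 115, 145 and 31.2 CPM in the other cells. With 1 or more UMI in the rule, Dcn did not lie below the other cells in every library. The sums were 56.8, 151 and 62.6 CPM in the members and 779, 1229 and 253 CPM in the other cells for 9 endothelial markers and 63.5, 108 and 77.7 CPM in the members and 532, 824 and 105 CPM in the other cells for 8 mural markers. For 10 microglia or macrophage markers they were 137, 367 and 66.9 CPM in the members and 918, 1182 and 195 CPM in the other cells, and for 9 neuron markers 288, 346 and 214 CPM in the members and 1121, 1095 and 758 CPM in the other cells.

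For 10 astrocyte markers the sums were 1755, 1750.0 and 1282 CPM in the members and 1597, 2984 and 893 CPM in the other cells, and for 9 oligodendrocyte markers 33.4, 43.2 and 36.7 CPM in the members and 41.1, 62.5 and 39.8 CPM in the other cells. Of the latter 2 were tested, with a median log2 ratio of 0.10, and 4 were at 0. On the endothelial, mural, microglia or macrophage, and neuron lists no marker passed 4-fold downwards, while Rtn1 and Sncg, on no list, did. Of all genes tested 0.465% did. Aldoc, an enzyme of glycolysis used as an astrocyte marker, was at 1244, 1188 and 902 CPM in the members and 336, 787 and 191 CPM in the other cells, while 8 of the 10 astrocyte markers lay below the other cells in all 3 libraries, beside 32.0% of all genes tested. Folr1, a folate receptor found on choroid plexus and other epithelia, was at 408, 519 and 268 CPM in the members and 17.8, 15.1 and 27.8 CPM in the other cells, while Ttr, the leading product of choroid plexus, was at 0, 0 and 2.16 CPM in the members and 5.14, 11.0 and 7.62 CPM in the other cells. Hemoglobin was uneven, and Hbb-bs was at 46.8, 43.2 and 261 CPM in the members and 1497, 2438 and 666 CPM in the other cells. In library 6 a single member held 93 of its 121 UMIs. Pou1f1, the factor of growth hormone, prolactin and thyrotropin cells, was at 26.7, 0 and 62.6 CPM in the members and 146, 106 and 282 CPM in the other cells.

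Gh RNA was found in nearly every member, Prl and Pomc in fewer. Gh was present in 100, 97.1 and 100% of members, Prl in 48.8, 47.1 and 84.1% and Pomc in 64.2, 5.88 and 81.1%. Gh had a median of 14, 7 and 25 UMIs per member in libraries 4, 5 and 6, and 6, 3 and 19 in microglia or macrophage-like cells, which make no growth hormone. Prl had medians of 0, 0 and 2 and Pomc of 1, 0 and 2 UMIs per member, against 0, 0 and 1 and 0, 0 and 1. Members were deeper than microglia or macrophage-like cells, whose median was 549.5, 414 and 680 UMIs. As CPM, Gh was lower in the members, at 55629, 34676.5 and 69639 against 118964, 147655 and 306058. The rule limited Gh in the members, so nothing is read from that order. The microglia or macrophage-like cells counted here included 5 members. The part of free RNA in these 3 hormones was not tested further.

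A minority of members held endocrine RNA far above that background, in 2 sets. In 37 members Lhb, the beta subunit of luteinising hormone, had 10 or more UMIs, 18, 0 and 19 of them by library. In 12 members Cck, the gene of the peptide cholecystokinin, had 5 or more UMIs, 3, 3 and 6 by library. Both limits were set after the values had been seen. No cell passed both, and nothing is read from that in sets this small. Of 408 microglia or macrophage-like cells, 2 passed the first limit and 0 the second. The 408 included 5 members, and 1 of the 2 was itself an Lhb-rich member, of library 6 with 11 Lhb UMIs.

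The Lhb-rich members carried the genes of gonadotrophs, the cells that make luteinising and follicle-stimulating hormone, together with Mia, Rbpms and Sox2. Lhb was at 12118 CPM in them, 262 CPM in the 272 members of neither set and 53333 CPM in the remaining 470 cells of cluster 7. Fshb was at 2686, 131 and 7483 CPM in the same order, and Gnrhr, the receptor for gonadotropin-releasing hormone, at 167, 20.1 and 601 CPM. Mia was at 5017, 6593 and 182 CPM, Rbpms at 523, 618 and 19.7 CPM, and Sox2 at 276, 322 and 14.7 CPM. Lcn2 (378 against 631 CPM) and Cpxm2 (79.9 against 189.7 CPM) were lower in the Lhb-rich members than in the members of neither set, with intervals apart. Lhb lay at a lower level than in cluster 7, and Mia at a higher one. Of these 37 cells, 29 lay in cluster 5. They were deeper, with a median of 3109 UMIs against 1864.5, and had a median doublet score of 0.104 against 0.0653. The part of doublets was not tested.

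The Cck-rich members shared a profile that differed from that of the members of neither set. It was not compared with Cck-rich cells that were no members. Cck had 113, 77, 12 UMIs in the 3 cells of library 4, 42, 30, 7 in the 3 of library 5 and 171, 34, 32, 14, 14, 10 in the 6 of library 6. In the same order Chga, a protein of secretory granules, had 31, 63, 36 UMIs, then 47, 14, 28, then 116, 45, 27, 19, 24, 5. All 12 cells thus had 5 or more UMIs of both. Cga, the subunit shared by the glycoprotein hormones, was at 7328 CPM in them and 2414 CPM in the members of neither set, while Lhb was at 119 and 262 CPM. Tshb, the beta subunit of thyrotropin, was present in 8 of 12, at 624 against 35.3 CPM, and Pou1f1 was present in none.

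Other genes ran with Cck. Apoc3, an apolipoprotein, was present in 12 of 12 cells and 7 of 272, at 2177 and 40.3 CPM. Rorb, a nuclear receptor, was at 969 and 83.9 CPM, Kcnk3, a potassium channel, at 597 and 15.1, and Cdkn1c at 1314 and 128 CPM. Mia was lower, at 1633 against 6593 CPM, as were Lcn2 (146 and 631) and Rbpms (66.4 and 618). Sox2 was at 173 and 322 CPM. The sum of Cyp2f2 and Aldh1a2 ran from 2 to 28 UMIs, and 11 of the 12 lay in cluster 5. Most were very deep, with a median of 7307.5 UMIs and a median doublet score of 0.0839. They held 556 Cck and 164 Apoc3 UMIs, against 8 and 24 in the 272 members of neither set.

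**Figure D4:**
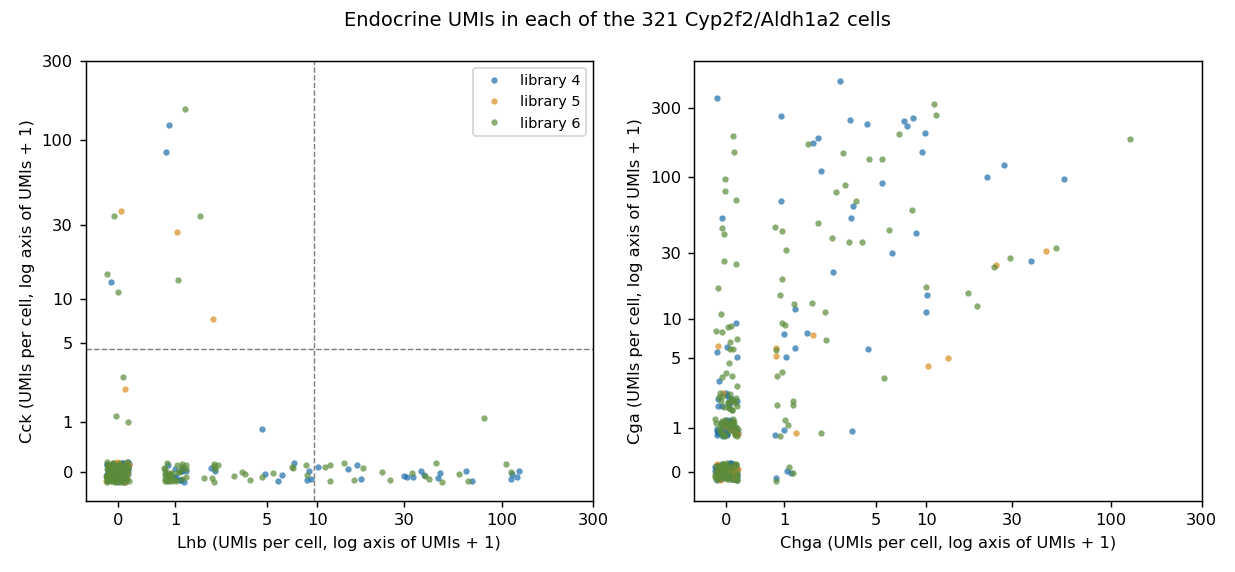
Each point is 1 of the 321 Cyp2f2/Aldh1a2 cells, with UMIs per cell of Lhb and Cck (left) and of Chga and Cga (right) on log axes of UMIs + 1, coloured by library and jittered, and dashed lines at the limits of 10 Lhb and 5 Cck UMIs. The 37 Lhb-rich and 12 Cck-rich cells lie past 1 line each. No point lies past both lines, from which nothing is read in sets this small.

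Between libraries a minority of genes differed in the members, and hormone and stress genes were among them. Of genes at 100 CPM or more in the members of 1 library, 128 (6.26%) were at least 2 times apart between the highest and the lowest library with intervals apart. The highest was library 5 for 81 of them, where the members were fewest. Between libraries 4 and 6 alone, 31 genes (1.85%) were apart, 12 higher in 4 and 19 higher in 6. Since the libraries were not tied to a sleep group, these are differences between libraries only.

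The 5 genes furthest apart were Bpifa1, Lhb, Fshb, Maff and Arl2. Bpifa1, a secreted airway protein, was at 0, 2355 and 0 CPM, and its 109 UMIs came from 1 member of library 5, a cell with 8 Cyp2f2 UMIs and no Mia UMI. Only 5 cells of the whole table had a Bpifa1 UMI. Lhb was at 3273, 64.8 and 1839 CPM in the members and 5717, 2674 and 5464 CPM in the other cells, and Fshb at 873, 21.6 and 404 CPM in the members and 789, 429 and 763 CPM in the other cells, with library 5 lowest among members and others alike. Maff, a small transcription factor, was at 0, 151 and 30.2 CPM in the members and 8.69, 15.8 and 10.6 CPM in the other cells, and Arl2, a small GTPase, at 127, 0 and 101 CPM in the members and 105, 107 and 93.5 CPM in the other cells. Counts for the last 2 in library 5 were 7 and 0 UMIs.

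Immediate early genes, switched on within minutes of a stimulus, stood lowest in the members of library 4 for each of Fos, Fosb, Jun, Junb, Atf3, Nr4a1 and Socs3. Fos was at 1337, 2052.5 and 2737 CPM in the members of libraries 4, 5 and 6 and at 378, 1036 and 817 CPM in the other cells. Atf3, a factor of the stress response, was at 66.9, 669.8 and 393 CPM (40.8 to 103, 455 to 951 and 338 to 454) in the members and 17.0, 109.9 and 62.0 CPM in the other cells. Nr4a1 was at 50.1, 454 and 239.6 CPM in the members and 99.5, 84.5 and 66.3 CPM in the other cells, and Socs3, a brake on cytokine signals, at 83.6, 454 and 201 CPM in the members and 45.8, 145 and 86.2 CPM in the other cells. The order of the libraries was the same in members and others for Atf3, with library 4 lowest and library 5 highest. For Nr4a1 it was not. Fosb was the 1 gene of 17 on the list that passed 4-fold over the other cells in every library, at 324, 1037 and 628 CPM in the members and 62.4, 146 and 131 CPM in the other cells, and the list's median log2 ratio was 1.48. Over all genes tested 0.558% passed. Hspb1, a small heat shock protein, was at 702, 519 and 1086 CPM in the members and 138, 189.6 and 167 CPM in the other cells, while Hsp90aa1 was at 361, 324 and 438 CPM in the members and 673, 872 and 1155 CPM in the other cells. Papain dissociation was shared by all libraries, and its part in these levels was not tested.

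Glucocorticoid targets and clock genes had smaller median log2 ratios, 0.41 and 0.40. None of 13 and 14 tested genes passed 4-fold. Over all genes tested 0.558% passed upwards and 0.465% downwards, so nothing is read from the lack of calls. Mt1, a metallothionein that binds zinc, was at 4593, 7778 and 7414 CPM in the members and 3419, 6607 and 4949.6 CPM in the other cells, and Mt2 at 2591, 4083 and 2810.3 CPM in the members and 1200.0, 2041 and 1433 CPM in the other cells. Sgk1, a kinase induced by glucocorticoid, was at 157, 151 and 92.8 CPM in the members and 35.6, 55.6 and 26.2 CPM in the other cells, and Tsc22d3 at 408, 367 and 520.2 CPM in the members and 247, 474 and 234 CPM in the other cells. Among clock genes, the output factor Dbp was at 468, 281 and 257 CPM in the members and 197, 163 and 119.7 CPM in the other cells. Per3, a repressor of the clock, was at 408, 475 and 233 CPM in the members and 228, 158 and 204 CPM in the other cells. Dbp in the members of library 4 (394 to 552) was above that of library 6 (213 to 307), and library 4 was also highest among the other cells.

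**Figure D5:**
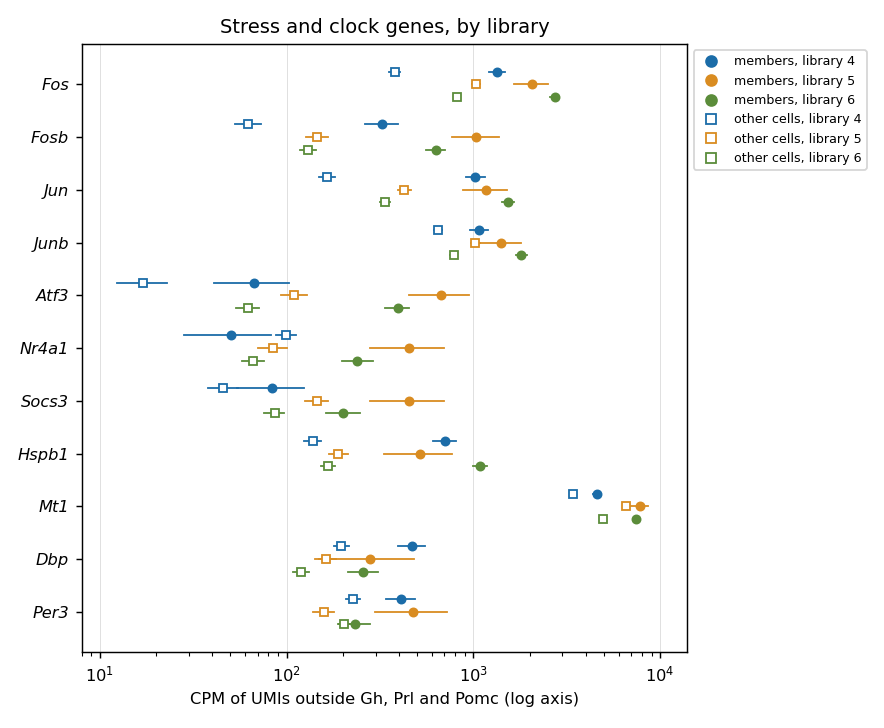
Levels in CPM of UMIs outside Gh, Prl and Pomc (log axis) of 11 stress, immediate early, metallothionein and clock genes in the Cyp2f2/Aldh1a2 cells (filled circles) and the other cells (open squares) of libraries 4, 5 and 6, with exact Poisson 95% intervals. Atf3 and Socs3 were lowest in library 4 in both kinds of cells, and Fosb lay higher in the members of every library than in any group of other cells.

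At equal depth Mia was still found in most members. Each cell was thinned to 500 UMIs outside the hormones, which left out 4, 2 and 0 members of libraries 4, 5 and 6 and 1051, 1637 and 1157 other cells. Mia was then present in 89.9% (83.0 to 94.7), 75% (56.6 to 88.5) and 84.8% (78.3 to 89.9) of members. Before thinning it was present in 99.2, 88.2 and 99.4%. Other cells reached 8.50%, 12.8% and 10.9%. Microglia or macrophage, endothelial and mural-like cells, types which should lack it, reached 2.27%, 6.90% and 4% after thinning. Before thinning they reached 2.45, 2.94 and 6.59%, at median depths of 585, 419 and 754 UMIs. This set included the members in its clusters, each with Mia. They were 5 in microglia or macrophage-like, 1 and 2 in endothelial-like and 1 in mural-like clusters.

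Igfbp5 and Sox2 were likewise found in a larger share of members than of other cells at equal depth. Igfbp5 was present in 77.3%, 87.5% and 70.7% of thinned members and 8.85%, 6.47% and 7.86% of other cells. Sox2 was present in 13.4% (7.88 to 20.9), 15.6% (5.28 to 32.8) and 9.76% (5.68 to 15.4) of thinned members and in 3.32%, 3.38% and 2.47% of other cells. In the microglia or macrophage, endothelial and mural-like cells, with the members among them counted, Sox2 was present in 0.284%, 3.45% and 0.667%. Sox9 was present in 8.40% (4.10 to 14.9), 6.25% (0.766 to 20.8) and 11.6% (7.12 to 17.5) of thinned members and 4.32% (3.53 to 5.22), 5.12% (3.86 to 6.64) and 3.85% (3.15 to 4.67) of other cells, with intervals apart in library 6 and overlapping in libraries 4 and 5. S100b was present in 1.68%, 0% and 0% of thinned members (0.204 to 5.94, 0 to 10.9 and 0 to 2.22). In the same microglia or macrophage, endothelial and mural-like cells it was present in 0.852%, 4.83% and 3.33%. Other cells had it in 4.70%, 6.67% and 4.97%. The part of free RNA in the S100b of the members was not tested.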

How the data were processed

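Papain-dissociated cells of cortex, hypothalamus and brainstem were captured with the 10x Genomics Chromium kit (version 2) as 9 libraries of 3 pooled mice. As deposited by the authors, the data are UMI counts in 1 table of genes by cells, made with Cell Ranger 2.2.0 on GRCm38, named in the submitters' processing notes together with R 3.5.3. The values are whole numbers with no normalization, for 18634 genes and 29571 cells. The annotation release is not given in the sources used here. Libraries 4 to 6 held 3965301, 2121900 and 5488950 UMIs. PCR duplicates are removed by the UMIs, and intervals cover counting error only.

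UMIs were summed per library over members and over the other cells and divided by totals without Gh, Prl and Pomc. Ratios were taken of CPM + 10 for genes of at least 10 CPM in members or others of each library, and a gene was called at 4-fold in 1 direction in all 3 libraries. No test was run, since each group is 1 library. Clusters were built on log counts scaled to 10000 per cell, without the genes of the rule and the 3 hormones, from 2000 variable genes, 13 principal components, 20 neighbours and Leiden resolution 1 (leidenalg 0.10.2, scanpy 1.11.5). A cluster was named where at least 3 markers were raised 2 times and found in 10% of its cells, and by the class with more markers than any other among its 10 leading genes. The scripts were tested on simulated data. The members and gene lists were chosen with earlier results of these data known.

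Genes named were the markers, the 3 highest genes per list and role, list genes past 4-fold, the 15 highest and 5 lowest ratios outside the lists, and the 5 genes furthest apart between libraries. Other genes named, and the Lhb-rich and Cck-rich cells, were chosen after their values had been seen. Alternatives covered the rule's limits, depth, totals, pseudocount, filter, fold, comparison cells, resolution and free RNA, with further ones, noted as such, added after seeing the data. Coordinates come from GENCODE vM21, in which 17949 of the symbols were found, and sequences from RefSeq. Some genes are not reported here.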

Additional observations from a re-analysis of the deposited data

Results flagged for a closer look

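The rule found 7 cells in library 9, outside the 3 libraries it was made for, which is above the limit that a count of 0 allows (3 cells). None of the 7 carried Cyp2f2 or Mia, and all 7 carried at least 1 of the 6 fibroblast genes, at 4832 CPM of their 13865 UMIs. The cells of the other 5 libraries numbered 0, 0, 2, 3 and 1 in libraries 1, 2, 3, 7 and 8.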

How the results depend on the processing

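No paired analysis of sleep groups was possible because the labels give each group 1 library and no shared replicate numbers beyond it. Members and other cells were compared within each library. No named gene past 4-fold changed direction in all libraries under the alternatives run. Of 3920 recomputed calls of named genes, 3760 stayed on their side of the limit, 61 were lost and 99 gained. Of those gained, 41 came from lowering the limit to 2-fold. Of 3200 levels, 2880 stayed within the counting interval. With 1 or more UMI of the rule's genes, 16 genes were called lower in place of 45, and 70.0% of members lay in 1 cluster in place of 79.8%. Dcn and Ptgds did not lie below the other cells in every library there. With 3 or more UMIs, 38 genes were called higher, 37 of them among the 54, and 37 of the 45 were still called lower. Hes1, Aldh3a1, Cbr2, Hey2, Cgn, Cdkn1c, G0s2, Pax6, Prss8, Pou1f1 and Hbb-bt were among those lost. Among cells of at least 1000 UMIs, 27 genes were called higher in place of 54, 25 of them shared, and 89 lower. Mia, Hes1, Cbr2, Hey2, Cgn, Cldn7, Cdkn1c, Ces1d, Msx1, Agr3, Pou1f1, Col25a1 and Dcn were among those lost there, and Agr3 lay below the other cells in at least 1 library. With Gh, Prl and Pomc in the totals, 86 genes were called higher and 13 lower, as the median log2 ratio of all genes and libraries went from -0.13 to 0.30. A pseudocount of 1 CPM gave 126 higher and 276 lower, and a limit of 2-fold 260 and 417. With the mean over cells of each cell's CPM, 72 genes were called higher, 46 of them among the 54, and 27 lower, 22 of them among the 45. The settings that follow were chosen after seeing the data. Without library 4 there were 198 members and 77 genes called lower, and without library 6 157 members, 135 called lower and 68 apart between libraries. Without library 5, 86 genes were called higher and 31, in place of 128, were apart between libraries. Without the Lhb-rich and Cck-rich members, or with the members of cluster 5 alone, 68 and 56 genes were called higher. Without the Lhb-rich and Cck-rich members 48 of the 54 and 35 of the 45 still passed, and Cdkn1c, Sparcl1, Pou1f1 and Dcn were among those that did not. Leaving out a library removes 1 condition from each call. The cause of the other changes was not tested. In library 5 a count of 0 in the members allows 64.8 CPM, and without it 54 genes were called lower.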

Other observations

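Of the 54 genes called higher together with Cyp2f2 and Aldh1a2, all 56 had a position in GENCODE vM21, and 5 pairs lay within 50 kb of each other. They were the 3 pairs among Cyp2f2, Cyp2t4 and Mia, Hsd11b1 with G0s2 on chromosome 1 (8.09 kb apart), and Alox12e with Alox15 on chromosome 11 (21.5 kb apart). Alox15, a lipoxygenase that acts on arachidonic acid, was at 93.6, 108 and 56.1 CPM in the members and 1.98, 2.06 and 2.65 CPM in the other cells. Genes with related sequences such as the lipoxygenases and Cyp2 genes can share reads, and how these were split was not tested.

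Cells rich in Cck were not limited to the members. Of 32 cells of libraries 4 to 6 with 5 or more Cck UMIs, 15 lay in cluster 5, 11 of them members, and 17 lay in other clusters, 1 of them a member. Of 497 cells with 10 or more Lhb UMIs, 37 were members and 17 were other cells of cluster 5.

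Further genes called higher were not on a list. Aqp3, a water and glycerol channel of epithelia, was at 90.3, 64.8 and 62.6 CPM in the members and 0.790, 4.12 and 1.99 CPM in the other cells. Gpha2, a subunit of the glycoprotein hormone thyrostimulin, was at 120.4, 194 and 58.3 CPM in the members and 3.16, 8.24 and 5.63 CPM in the other cells. Isl1, a homeobox factor, was at 174, 173 and 159.7 CPM in the members and 18.6, 24.7 and 22.9 CPM in the other cells, and Eya1, a transcriptional coactivator, at 167, 108 and 142 CPM in the members and 19.8, 14.4 and 25.2 CPM in the other cells. Wfdc2, a protease inhibitor of epithelial fluids, was at 281, 151 and 257 CPM in the members and 22.9, 24.7 and 32.5 CPM in the other cells. Slc5a7, the choline transporter, was at 53.5, 86.4 and 45.3 CPM in the members and 1.98, 1.37 and 1.33 CPM in the other cells.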
